A study of Mus musculus with 13 samples.

Results

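Glucocorticoid-responsive genes were followed in the livers of mice given a high-fat high-sucrose (HFHS) diet or a mixture of pollutants. The set holds 10 genes, out of 19513 genes tested on the array. They were chosen by name: the probes whose gene name in the scanner files is Nr3c1, Zbtb16, Fkbp5, Tsc22d3, Sgk1, Dusp1, Klf9, Errfi1, Cebpd or Hsd11b1. These names match 11 of the 39429 probes, 2 for Nr3c1 and 1 for each other gene. Because the genes were picked with results of these same arrays known, their values are given as a description. The number of them past the threshold is printed once, beside the share of all genes, and supports nothing.

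Total RNA came from the liver of female C57BL6 mice aged 12 weeks and was hybridized to 13 one-colour Agilent arrays. The HFHS group (n = 5) had vehicle and a diet labelled HFHS, read here as high-fat high-sucrose. The series title calls it high-fat. The ST vehicle group (n = 3) had a standard diet and vehicle. The ST pollutants group (n = 5) had the standard diet and a low-dose mixture of 4 pollutants. Neither the pollutants and their doses nor the make-up of the diets is named in the labels. The design text does not settle which diet carried the mixture, and the grouping here rests on the sample labels, which give ST. The samples are labelled as biological replicates, and nothing ties a sample to a time of day or to how the animals were killed.

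Corticosterone, the main glucocorticoid of mice, enters cells and binds the glucocorticoid receptor, which is held in the cytoplasm by chaperones such as HSP90 and by co-chaperones. The bound receptor moves to the nucleus and binds response elements whose ideal form is a palindrome of AGAACA half-sites 3 bases apart. In liver it raises genes of gluconeogenesis and amino acid breakdown and many feedback genes, among them Fkbp5, whose product lowers the affinity of the receptor for the hormone. Blood corticosterone follows the time of day and rises with stress and fasting, and insulin and cyclic AMP act on several of the same genes.

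Promoter sequence is shown for 4 of the genes because their start sites carry different kinds of motif. Their means were lower with HFHS than with pollutants, as were those of 9 of the 10 genes. For Sgk1, Tsc22d3 and Dusp1 these groups overlapped. The stretches run from 250 bases before to 50 bases after a start site and come from RefSeq, build GRCm38.p6, which held 15 such promoters for 7 of the 10 genes. Nr3c1, Zbtb16 and Cebpd have no entry used here. Capitals mark the palindrome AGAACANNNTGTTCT, its half-site AGAACA or TGTTCT, the E-box CACGTG bound by clock and other basic helix-loop-helix factors, and the cyclic AMP response element TGACGTCA. Positions are counted from the start site, and both strands were searched.
Sgk1, chr10:21993640-21993939, plus strand: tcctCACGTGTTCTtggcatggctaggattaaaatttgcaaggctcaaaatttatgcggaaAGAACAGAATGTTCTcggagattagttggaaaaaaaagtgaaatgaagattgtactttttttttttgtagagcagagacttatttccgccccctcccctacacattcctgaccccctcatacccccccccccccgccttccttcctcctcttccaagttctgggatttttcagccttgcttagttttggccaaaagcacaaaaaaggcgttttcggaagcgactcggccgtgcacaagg
Tsc22d3, chrX:140600473-140600772, minus strand: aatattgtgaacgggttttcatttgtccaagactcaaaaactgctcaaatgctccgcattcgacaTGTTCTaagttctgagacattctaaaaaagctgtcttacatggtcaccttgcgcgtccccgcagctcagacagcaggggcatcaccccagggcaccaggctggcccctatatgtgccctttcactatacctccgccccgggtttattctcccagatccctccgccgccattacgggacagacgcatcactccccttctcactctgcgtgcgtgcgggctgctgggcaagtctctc
Fkbp5, chr17:28486100-28486399, minus strand: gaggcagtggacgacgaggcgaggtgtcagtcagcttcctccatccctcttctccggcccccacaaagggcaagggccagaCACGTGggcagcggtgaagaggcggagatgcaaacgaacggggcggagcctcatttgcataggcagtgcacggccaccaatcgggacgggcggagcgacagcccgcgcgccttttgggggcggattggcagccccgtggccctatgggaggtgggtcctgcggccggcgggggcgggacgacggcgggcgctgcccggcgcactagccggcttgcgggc
Dusp1, chr17:26508423-26508722, minus strand: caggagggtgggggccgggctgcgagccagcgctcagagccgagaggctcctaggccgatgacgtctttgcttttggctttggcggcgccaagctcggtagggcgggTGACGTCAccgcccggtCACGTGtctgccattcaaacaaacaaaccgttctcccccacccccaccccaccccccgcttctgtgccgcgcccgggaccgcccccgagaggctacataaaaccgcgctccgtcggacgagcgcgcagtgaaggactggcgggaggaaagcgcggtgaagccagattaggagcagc

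The Sgk1 stretch holds the exact palindrome at position -189 and an E-box at position -246 that overlaps another half-site. That palindrome occurs in 3 of 32851 promoters of this length (0.00913%), and in 1 of the 15 listed here. The half-site alone occurs in 19.0% of all promoters and in 4 of the 15, from Sgk1 and Tsc22d3, where the copy shown lies at position -185. Fkbp5 has an E-box at position -169, and the E-box is found in 7.15% of all promoters and in 3 of the 15. Dusp1 has the cyclic AMP response element at position -143 and an E-box at position -126. The cyclic AMP response element occurs in 1.79% of all promoters and in 2 of the 15, from Dusp1 and Errfi1. A match is a run of letters in this window and not a measured binding site.

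Values below are log2 intensities minus the 75th percentile of the same array, so 0 is the level of that percentile. Each level belongs to its own probe and cannot be set against the level of another. A difference is that of group means on this scale, with the standard error (SE) and 95% interval of a limma model over all 13 arrays. All 11 probes were well above background on all 13 arrays and none was saturated, so no member was lost to the filter on dim probes. Slides 1, 2 and 5 held an array of each group, and slides 3 and 4 held an HFHS and a pollutant array, so differences are also given within slides. In whole liver, fewer cells of a type and less RNA per cell cannot be told apart.

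The arrays of slide 1 stood apart from the other 10 on the first principal component of all genes (-41.81 to -35.42 against -2.27 to 36.7), which held 22.8% of the variance. Hepatocyte markers (8 of 8 measured) had list means of 7.67 to 8.02 with HFHS, 7.99 to 8.15 in ST vehicle and 7.91 to 8.17 with pollutants. Markers of pancreatic acinar cells (8 of 10 measured) had list means of 3.75 to 7.10 in HFHS replicates 3, 4 and 5, and -3.51 to -1.78 in the other 10 arrays. Some of the results below are also given without slide 1 or without those 3 HFHS arrays.

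**Figure D1:**
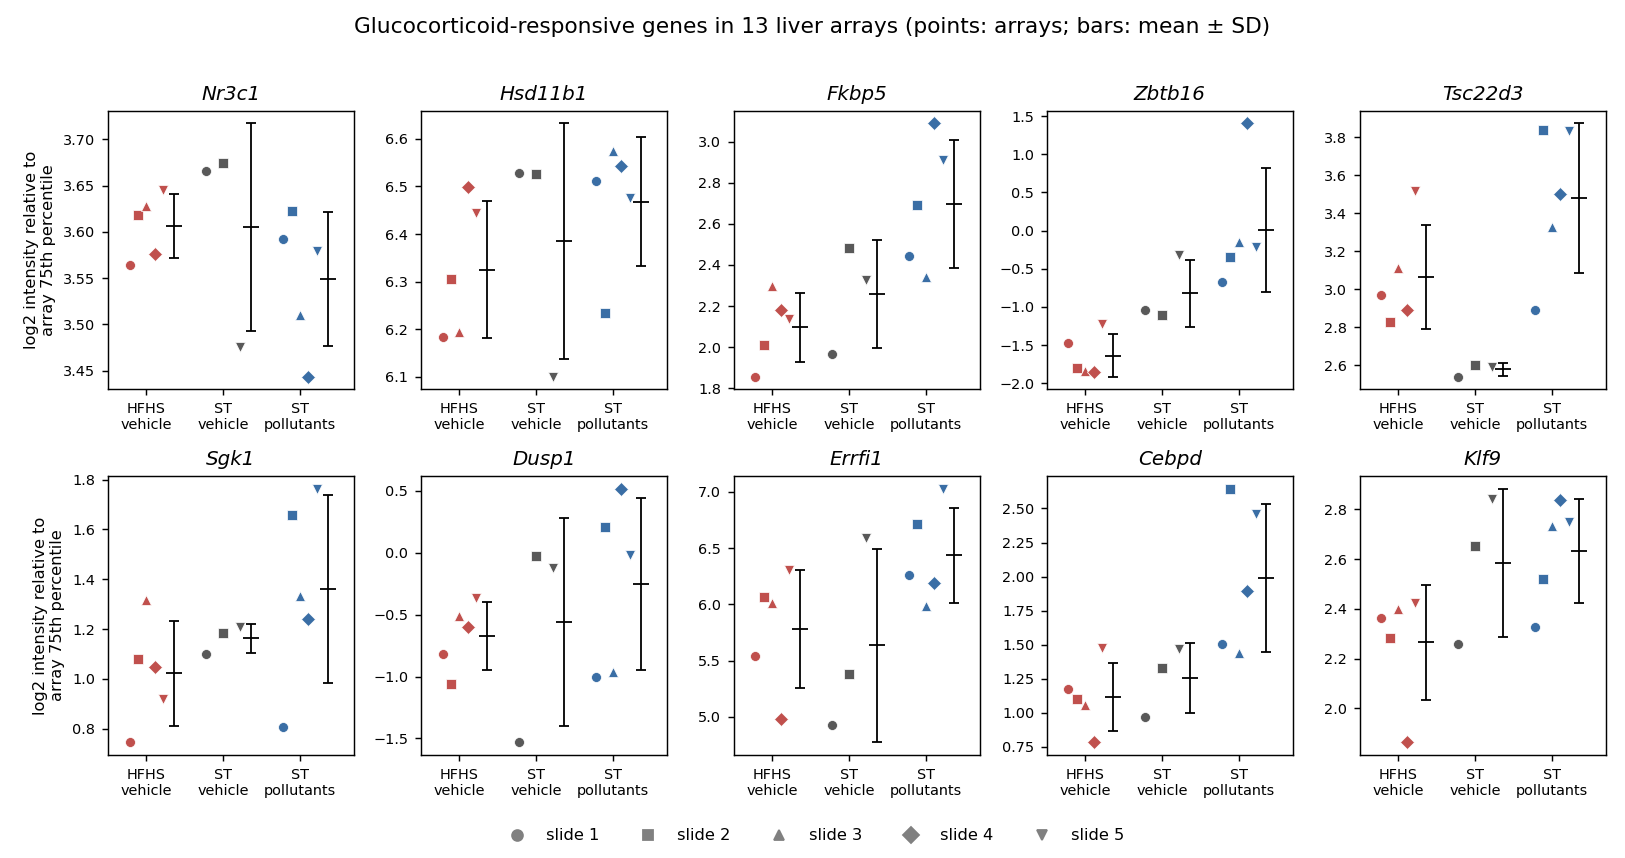
Level of each of the 10 genes in the 13 arrays, as log2 intensity relative to the array's 75th percentile (vertical axis, its own range in each panel), by group (horizontal axis). Points are arrays, with the shape giving the slide, and bars are the mean ± SD. Zbtb16 and Fkbp5 have all 5 HFHS arrays below all 5 pollutant arrays, Tsc22d3 has the 3 ST vehicle arrays lowest, and Nr3c1 spans only 3.44 to 3.67.

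Of the 10 genes, 7 had their lowest mean with HFHS and their highest with pollutants, while Tsc22d3 and Errfi1 were lowest in ST vehicle and Nr3c1 was lowest with pollutants. Between HFHS and pollutant livers, 9 of the 10 means were lower with HFHS, with a median difference of -0.42 against -0.0047 over all genes tested. Against ST vehicle, 9 of the 10 means were higher with pollutants (median 0.37, all genes -0.0088) and 7 of 10 were lower with HFHS (median -0.12, all genes -0.019). These last comparisons share the 3 ST vehicle arrays and are not independent of each other.

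At an adjusted p under 0.05 (limma, Benjamini-Hochberg over all 19513 genes), a gene is called. In HFHS against ST pollutants 1 of the 10 was called, Zbtb16, beside 3.87% of all genes (2.3% in the same direction), and 5 of the 10 had an unadjusted p under 0.05, beside 3568 of 19513 genes. Zbtb16 lost the call in 4 of 25 alternatives. These were normexp background correction, and leaving out slide 1, HFHS replicate 2, or HFHS replicates 3, 4 and 5. In HFHS against ST vehicle 0 were called, beside 0.687% of all genes, and 1 of the 10 had an unadjusted p under 0.05, beside 2356 of 19513 genes. In ST pollutants against ST vehicle 0 were called, beside 0.984% of all genes, and 3 of the 10 had an unadjusted p under 0.05, beside 2371 of 19513 genes. Since the genes were chosen with these contrasts in view, nothing is read from these counts.

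By array, the pollutant replicate 5 was among the 3 highest of the 13 arrays for 8 of the 10 genes, and the pollutant replicates 2 and 4 for 6 each. The pollutant replicate 1, on slide 1, was among the 3 highest for 0 of them. The ST vehicle replicate 1, also on slide 1, was among the 3 lowest for 6. The pollutant group therefore did not stand high as a block, and 3 of its arrays carried most of the high values.

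**Figure D2:**
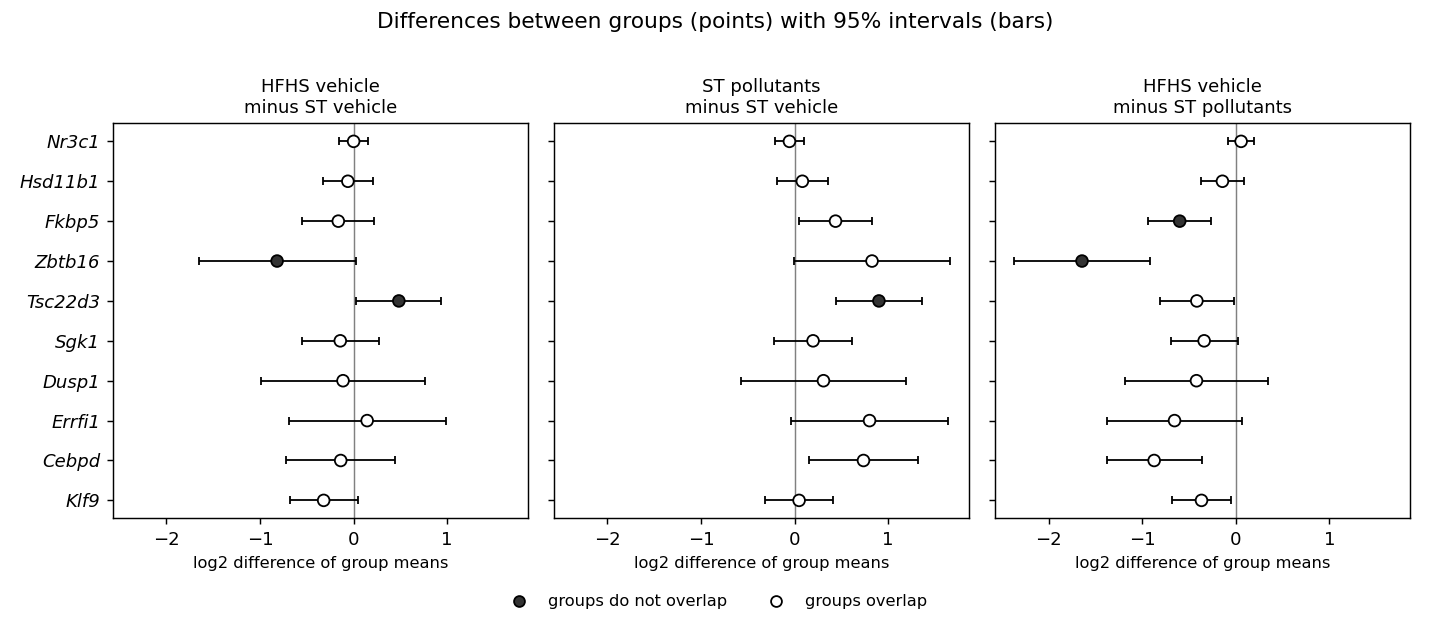
Difference of group means on the log2 scale (horizontal axis) for the 10 genes in the 3 comparisons, with 95% intervals. Filled points mark genes whose groups do not overlap in any array: Zbtb16 and Tsc22d3 in HFHS minus ST vehicle, Tsc22d3 in ST pollutants minus ST vehicle, and Fkbp5 and Zbtb16 in HFHS minus ST pollutants.

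The receptor gene Nr3c1 had nearly equal levels in all 3 groups. The probe with the higher signal, at base 4827 of its transcript, read 3.56, 3.62, 3.63, 3.58 and 3.65 in the HFHS arrays, 3.67, 3.67 and 3.48 in ST vehicle, and 3.59, 3.62, 3.51, 3.44 and 3.58 with pollutants. The groups overlapped throughout. The difference was 0.00 ± 0.07 (SE) for HFHS against ST vehicle, with a 95% interval of -0.16 to 0.16. It was -0.06 ± 0.07 for pollutants against ST vehicle, with an interval of -0.21 to 0.10. The second probe, at base 2285, gave 0.05 ± 0.17 and 0.15 ± 0.17 for the same comparisons, with wider intervals of -0.33 to 0.43 and -0.23 to 0.53. For HFHS against pollutants the 2 probes gave 0.06 ± 0.06 and -0.09 ± 0.15.

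Hsd11b1 encodes the liver enzyme that regenerates active glucocorticoid from its inactive keto form. Its probe was spotted 10 times on each array and read 6.18, 6.31, 6.19, 6.50 and 6.44 with HFHS, 6.53, 6.53 and 6.10 in ST vehicle, and 6.51, 6.23, 6.58, 6.54 and 6.48 with pollutants. The groups overlapped, and the 3 differences were small: -0.06 ± 0.12 (HFHS minus ST vehicle), 0.08 ± 0.12 (pollutants minus ST vehicle) and -0.14 ± 0.11 (HFHS minus pollutants). H6pd, whose product supplies that enzyme with its cofactor in the endoplasmic reticulum, was not called in any comparison, with differences of -0.21 ± 0.13, 0.10 ± 0.13 and -0.30 ± 0.11 in the same order. Serpina6, which encodes the corticosteroid-binding globulin of plasma, had differences of 0.25 ± 0.21, 0.18 ± 0.21 and 0.07 ± 0.18. Of 12 listed genes of corticosteroid supply, binding and clearance, 10 were measured and 0 were called in any comparison by limma. In the same order, 0.687%, 0.984% and 3.87% of all genes were called. At an unadjusted p under 0.05 (limma) there were 1, 4 and 2, beside 2356, 2371 and 3568 of 19513 genes.

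Zbtb16 encodes a zinc finger repressor (PLZF) that is strongly induced by glucocorticoids in many cell types, and among the 10 it had the largest difference between HFHS and pollutants. Its probe lies on chr9:48462419-48462478 of build mm9. It read -1.47, -1.79, -1.84, -1.85 and -1.23 with HFHS, -1.04, -1.10 and -0.32 in ST vehicle, and -0.68, -0.34, -0.14, 1.40 and -0.21 with pollutants. All HFHS arrays lay below all arrays of both other groups, and the pollutant replicate 4 lay far above the rest of its group. HFHS was lower than pollutants by a difference of -1.64 ± 0.33 (95% interval -2.37 to -0.92), a 3.12-fold difference of the linear levels. The order was the same on every slide, with differences of -0.79, -1.45, -1.70, -3.26 and -1.02 on slides 1 to 5. Without the pollutant replicate 4 the difference was -1.29, with normexp background correction -1.32, and without slide 1 -1.86.

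Against ST vehicle, the HFHS level of Zbtb16 differed by -0.82 ± 0.39 (95% interval -1.65 to 0.02) and was lower on the 3 shared slides. The share of all genes with every HFHS array below every ST vehicle array was 5.33%. With pollutants it differed from ST vehicle by 0.83 ± 0.39 (interval -0.01 to 1.66), and 3 of 5 arrays lay above the highest ST vehicle array. Without the pollutant replicate 4 that difference was 0.48. The order of means was HFHS, ST vehicle, pollutants, and the neighbouring groups each had an interval that reached 0.

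Fkbp5, the co-chaperone of the receptor's own feedback loop, showed a smaller separation. Its probe, on chr17:28536060-28536119 of mm9, read 1.86, 2.01, 2.30, 2.18 and 2.14 with HFHS, 1.97, 2.48 and 2.33 in ST vehicle, and 2.45, 2.69, 2.34, 3.09 and 2.91 with pollutants. The HFHS and pollutant groups did not overlap, though HFHS replicate 3 and pollutant replicate 3, on the same slide, were only 0.04 apart (difference -0.04). The group difference was -0.60 ± 0.15 (95% interval -0.93 to -0.27), or 1.51-fold, and every slide had the same sign. Zbtb16 and Fkbp5 were the 2 genes of the 10 with every HFHS array below every pollutant array, where 4.19% of all genes had that pattern. None had the opposite pattern, which 2.74% of all genes had. Against ST vehicle the difference was -0.16 ± 0.18 with HFHS and 0.44 ± 0.18 with pollutants, and both overlapped.

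Tsc22d3 encodes GILZ, a leucine zipper protein that carries part of the anti-inflammatory action of glucocorticoids. It had another order of groups. Its probe, on chrX:137074094-137074153 of mm9, read 2.97, 2.83, 3.11, 2.89 and 3.52 with HFHS, 2.54, 2.60 and 2.59 in ST vehicle, and 2.89, 3.84, 3.33, 3.50 and 3.83 with pollutants. The 3 ST vehicle arrays were the lowest of the 13 and spanned 0.063 in all. Pollutants were higher than ST vehicle by 0.90 ± 0.21 (95% interval 0.45 to 1.36), or 1.87-fold with 0.35, 1.24 and 1.24 within slides 1, 2 and 5. HFHS was higher than ST vehicle by 0.48 ± 0.21 (interval 0.03 to 0.94), or 1.40-fold, and by 0.32 without HFHS replicates 3, 4 and 5.

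For Tsc22d3, every array lay above the ST vehicle group with HFHS and with pollutants, where 3.82% and 3.93% of all genes had that pattern. No member lay wholly below ST vehicle with pollutants, where 4.4% of all genes did. HFHS and pollutants overlapped, with a difference of -0.42 ± 0.18 and 1 of 5 slides higher with HFHS. So Zbtb16 and Tsc22d3, both listed as glucocorticoid-induced, stood on opposite sides of the ST vehicle group in HFHS livers, at -0.82 and 0.48.

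Cebpd encodes a transcription factor of the acute phase and of early fat cell differentiation. It read 1.17, 1.10, 1.05, 0.78 and 1.47 with HFHS, 0.97, 1.32 and 1.47 in ST vehicle, and 1.51, 2.64, 1.44, 1.90 and 2.46 with pollutants. HFHS and ST vehicle overlapped, and 4 of 5 pollutant arrays lay above the highest ST vehicle array. Pollutants minus ST vehicle was 0.74 ± 0.27 (95% interval 0.15 to 1.32), and HFHS minus pollutants was -0.87 ± 0.23 (interval -1.38 to -0.37), lower with HFHS on all 5 slides. HFHS minus ST vehicle was -0.14 ± 0.27.

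Errfi1 encodes MIG6, an inhibitor of the EGF receptor, and varied widely within groups. It read 5.54, 6.06, 6.01, 4.98 and 6.30 with HFHS, 4.93, 5.38 and 6.59 in ST vehicle, and 6.26, 6.71, 5.99, 6.19 and 7.03 with pollutants. All groups overlapped, and the ST vehicle arrays alone spanned 1.66. Pollutants minus ST vehicle was 0.80 ± 0.38 (95% interval -0.04 to 1.64), which became 0.45 without ST vehicle replicate 1 and 1.28 without replicate 3. HFHS minus pollutants was -0.65 ± 0.33, with the same sign on 4 of 5 slides.

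Dusp1 encodes a phosphatase that inactivates MAP kinases and responds to stress as well as to glucocorticoids. It read -0.82, -1.06, -0.51, -0.60 and -0.37 with HFHS, -1.53, -0.03 and -0.13 in ST vehicle, and -1.004, 0.21, -0.96, 0.52 and -0.02 with pollutants. The pollutant and ST vehicle groups each held both low and high arrays, and every comparison overlapped. The 3 differences had standard errors of 0.40, 0.40 and 0.35, larger than or near the differences themselves (-0.11, 0.31 and -0.42). Pollutants minus ST vehicle changed sign without ST vehicle replicate 1, to -0.18. HFHS minus ST vehicle ran from -0.60 without ST vehicle replicate 1 to 0.16 without ST vehicle replicate 2. HFHS minus pollutants was -0.23 without pollutant replicate 4.

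Sgk1 encodes a kinase that regulates ion transport, and is the gene with the exact palindrome shown above. It read 0.75, 1.08, 1.31, 1.05 and 0.92 with HFHS, 1.10, 1.18 and 1.21 in ST vehicle, and 0.81, 1.66, 1.33, 1.24 and 1.76 with pollutants. The lowest HFHS and pollutant arrays were both on slide 1. Differences were -0.14 ± 0.19 for HFHS and 0.20 ± 0.19 for pollutants against ST vehicle, and -0.34 ± 0.16 between HFHS and pollutants, with overlap in each.

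Klf9, a Krüppel-like factor induced by glucocorticoids and by thyroid hormone, read 2.36, 2.28, 2.40, 1.86 and 2.42 with HFHS, 2.26, 2.65 and 2.84 in ST vehicle, and 2.33, 2.52, 2.73, 2.84 and 2.75 with pollutants. HFHS replicate 4 was the lowest array. HFHS was lower than pollutants by a difference of -0.37 ± 0.14 (95% interval -0.68 to -0.05), with overlap. Pollutants minus ST vehicle was 0.05 ± 0.17, and changed sign without ST vehicle replicate 1, to -0.12. HFHS minus ST vehicle was -0.32 ± 0.17, and -0.19 without ST vehicle replicate 3.

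**Figure D3:**
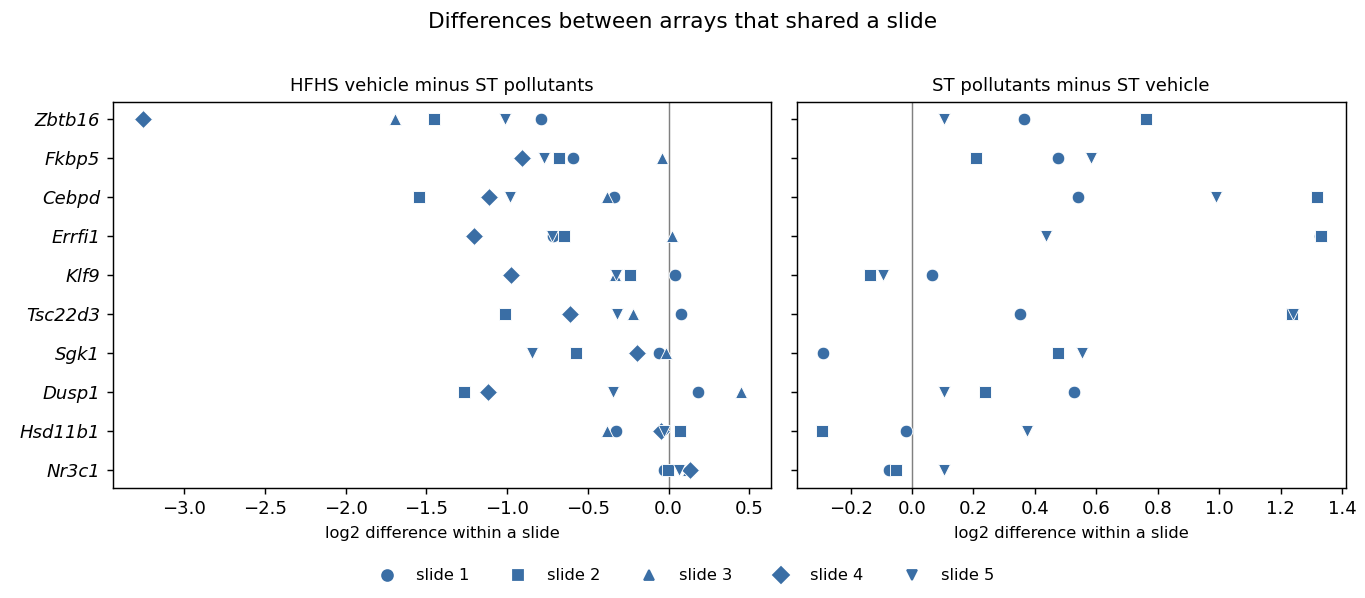
Difference between arrays that shared a slide, on the log2 scale (horizontal axis), for the 10 genes; each point is 1 slide, with its shape as labelled. Left, HFHS minus pollutants on 5 slides, where Zbtb16, Fkbp5, Cebpd and Sgk1 are below 0 on every slide; right, pollutants minus ST vehicle on slides 1, 2 and 5, where Tsc22d3 lies between 0.35 and 1.24.

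Other genes known to be induced by glucocorticoids, in a list of 30, were tested in the same model; 29 were measured. In HFHS against ST pollutants, 6 of 29 fell and 0 rose, beside 2.3% and 1.57% of all genes. The median difference was -0.59 and 26 of 29 were negative, beside -0.0047 and 51.1% over all genes. In ST pollutants against ST vehicle, 1 of 29 rose and 0 fell, beside 0.543% and 0.441% of all genes, with a median of 0.19. In HFHS against ST vehicle 0 of 29 were called by limma, beside 0.687% of all genes, and the median was -0.29. At an unadjusted p under 0.05 (limma) there were 7, beside 2356 of 19513 genes. The list was drawn up with earlier results of these data known and is not independent evidence of its direction.

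The 6 genes that fell in HFHS relative to pollutant livers were Lpin1, Pck1, Pnpla2, Txnip, Igfbp1 and Per1. These groups differ in both diet and mixture, so a fall here means lower with HFHS than with pollutants. Lpin1, a phosphatidic acid phosphatase and coactivator, fell by 1.26 on the log2 scale (SE 0.19, adjusted p = 0.00586, limma), with means of -0.24 ± 0.12 (SD, n = 5) and 1.03 ± 0.46 (SD, n = 5). A second Lpin1 probe gave -0.88. Pck1, the gluconeogenic phosphoenolpyruvate carboxykinase, was lower by 1.10 (SE 0.20, adjusted p = 0.0102), at 6.25 ± 0.49 with HFHS and 7.35 ± 0.19 with pollutants. Its ST vehicle mean was 6.56 ± 0.12 (SD, n = 3), and every pollutant array lay above every ST vehicle array. Pnpla2, the lipase ATGL, fell by 0.64 (SE 0.10, adjusted p = 0.00586). All 5 HFHS arrays lay below all 5 pollutant arrays for these 3 genes. Against ST vehicle, HFHS and pollutants differed by -0.83 and 0.43 for Lpin1, -0.31 and 0.79 for Pck1, and -0.33 and 0.30 for Pnpla2. None of these was called. The second Lpin1 probe, well above background on 13 arrays, gave -0.14 with HFHS and 0.74 with pollutants against ST vehicle. For Pck1 and Pnpla2 the call was lost in 1 of 25 alternatives, without slide 1 (adjusted p = 0.0828 and 0.0703), and for Lpin1 also without HFHS replicates 3, 4 and 5 (adjusted p = 0.0688).

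For Txnip, Igfbp1 and Per1 the call was lost under more of the alternatives, among them without slide 1. Without HFHS replicates 3, 4 and 5 it was lost for Txnip and Igfbp1. Txnip, an arrestin-like protein that restrains glucose uptake, fell by 0.87 (SE 0.20, adjusted p = 0.0313), and lost the call in 10 of 25 alternatives. With slide as a block its adjusted p was 0.0554. Igfbp1, a secreted IGF-binding protein repressed by insulin, fell by 1.94 (SE 0.49, adjusted p = 0.0485), and lost the call in 20 of 25. Its pollutant arrays spanned 3.03 to 5.57, and within slides the difference ran from -3.80 to 0.07. Per1, a clock gene with glucocorticoid response elements, fell by 1.02 (SE 0.24, adjusted p = 0.0359), and lost the call in 14 of 25. Against ST vehicle, HFHS and pollutants differed by -0.29 and 0.58 for Txnip, -2.07 and -0.13 for Igfbp1, and 0.45 and 1.47 for Per1.

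Per1 was also the gene that rose with pollutants against ST vehicle, by 1.47 ± 0.27 (adjusted p = 0.0302, limma), from 1.19 ± 0.27 (SD, n = 3) to 2.66 ± 0.34 (SD, n = 5). Within slides 1, 2 and 5 the difference was 0.91 to 2.20. It lost the call in 13 of 25 alternatives, among them without slide 1 and with slide as a block (adjusted p = 0.0678, limma). A second Per1 probe, also well above background on all 13 arrays, gave -0.01 and -0.07 in these comparisons, so the probes disagree and the change of Per1 rests on 1 of them.

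The metallothioneins Mt1 and Mt2, metal-binding proteins that respond to zinc as well as to glucocorticoids, had large differences that were not called. Mt2 averaged 5.70 ± 1.33 (SD, n = 5) with HFHS, 5.45 ± 0.19 (SD, n = 3) in ST vehicle and 7.55 ± 0.27 (SD, n = 5) with pollutants. The difference of pollutants from ST vehicle was 2.10 ± 0.58 (adjusted p = 0.123, limma), and that of Mt1 was 0.99 ± 0.32 (adjusted p = 0.192). For both genes every pollutant array lay above every ST vehicle and every HFHS array. A second Mt1 probe gave 1.03 for pollutants minus ST vehicle and -2.01 for HFHS minus pollutants, where the first gave -0.94. In all, 7 of 29 genes of the list lay wholly above ST vehicle with pollutants and 7 of 29 wholly below pollutants with HFHS, where 3.93% and 4.19% of all genes did.

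Bcl6, a transcriptional repressor of the list, had its highest mean in ST vehicle and is named here after its values were seen. It averaged 0.41 ± 0.32 (SD, n = 5) with HFHS, 2.52 ± 1.19 (SD, n = 3) in ST vehicle and 0.82 ± 0.49 (SD, n = 5) with pollutants. Its differences from ST vehicle, -2.11 ± 0.43 with HFHS (adjusted p = 0.0527, limma) and -1.69 ± 0.43 with pollutants (adjusted p = 0.0949), were not called.

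Tat, tyrosine aminotransferase and a classic glucocorticoid target of hepatocytes, hardly differed. Its means were 4.64 ± 0.21 (SD, n = 5) with HFHS, 4.70 ± 0.09 (SD, n = 3) in ST vehicle and 4.75 ± 0.23 (SD, n = 5) with pollutants. The adjusted p was 0.787 or above in all 3 comparisons. Pdk4, a kinase that restrains pyruvate oxidation, was lower with HFHS than in ST vehicle by a difference of -1.08 ± 0.50, without passing the test (adjusted p = 0.422).

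**Figure D4:**
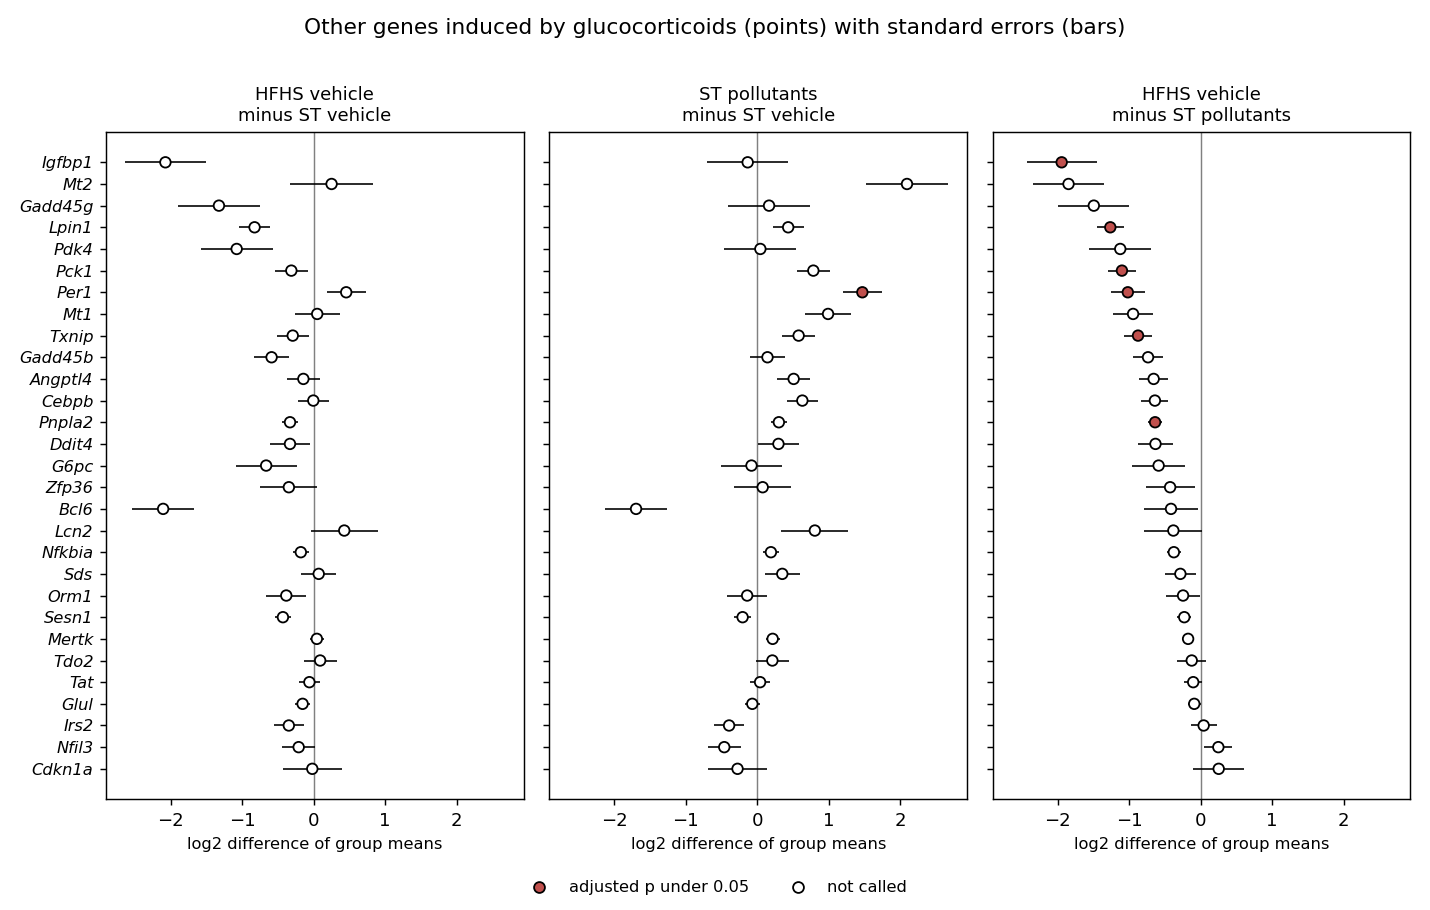
Difference of group means on the log2 scale (horizontal axis, bars are standard errors) for the 29 measured genes of the list of other glucocorticoid-induced genes, in the 3 comparisons. Filled points passed an adjusted p under 0.05: Per1 with pollutants against ST vehicle, and Igfbp1, Lpin1, Pck1, Per1, Txnip and Pnpla2 in HFHS minus pollutants, where 26 of 29 points lie left of 0.

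The proteins that hold and assist the receptor were looked at next. Of 15 genes for chaperones, coregulators and the mineralocorticoid receptor, all measured, 0 were called in HFHS or in pollutants against ST vehicle (limma). Of all genes, 0.687% and 0.984% were called. At an unadjusted p under 0.05 (limma) there were 4 and 1, beside 2356 and 2371 of 19513 genes. In HFHS against pollutants 1 rose, beside 1.57% of all genes, and 0 fell. It was Fkbp4, the co-chaperone that helps carry the receptor to the nucleus and is the counterpart of Fkbp5. Fkbp4 averaged 0.76 ± 0.09 with HFHS and 0.28 ± 0.18 with pollutants (SD, n = 5 each), a difference of 0.48 ± 0.11 (adjusted p = 0.0352) that was positive on every slide, 0.30 to 0.84. It lost the call in 13 of 25 alternatives, among them without slide 1 and without HFHS replicates 3, 4 and 5. Nr3c2, the mineralocorticoid receptor, had a difference of 0.58 ± 0.18 for HFHS against ST vehicle (adjusted p = 0.205).

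Of 21 close relatives of the 10 genes, 19 were measured. None passed the test against ST vehicle with HFHS or pollutants (limma), beside 0.687% and 0.984% of all genes. At an unadjusted p under 0.05 (limma) there were 7 with HFHS and 5 with pollutants, beside 2356 and 2371 of 19513 genes. In HFHS against pollutants 1, Tsc22d4, fell, beside 2.3% of all genes. Tsc22d4 fell by 0.61 (SE 0.13, adjusted p = 0.028, limma), a second probe gave -0.63 and another one -0.06. It lost the call in 14 of 25 alternatives, among them without slide 1 and without HFHS replicates 3, 4 and 5. Tsc22d4 did not share the order of Tsc22d3, since its pollutant and ST vehicle means were -0.30 ± 0.15 (SD, n = 5) and -0.35 ± 0.33 (SD, n = 3). Klf15, another glucocorticoid-induced factor of fasting liver, had differences of 0.26 ± 0.14, 0.30 ± 0.14 and -0.04 ± 0.12 (HFHS minus ST vehicle, pollutants minus ST vehicle, HFHS minus pollutants). Sgk2 had -0.28 ± 0.31, -0.49 ± 0.31 and 0.21 ± 0.27 in the same order.

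Immediate early genes, which answer stress and growth signals within minutes, and core clock genes were set beside the members because Dusp1 and Per1 belong to these classes as well. Of 12 immediate early genes 11 were measured and 0 were called in any comparison (limma). In HFHS against ST vehicle, pollutants against ST vehicle and HFHS against pollutants, 0.687%, 0.984% and 3.87% of all genes were called. At an unadjusted p under 0.05 (limma) there were 4, 2 and 3, beside 2356, 2371 and 3568 of 19513 genes. All 11 had a lower mean with HFHS than with pollutants, with a median of -0.30, beside 51.1% and -0.0047 over all genes. Against ST vehicle, 10 of 11 were lower with HFHS (median -0.41) and 7 of 11 with pollutants (median -0.13), beside 54.5% and 51.8% of all genes. Egr1 averaged 0.21 ± 1.23 (SD, n = 5) with HFHS, 1.96 ± 0.82 (SD, n = 3) in ST vehicle and 1.01 ± 0.60 (SD, n = 5) with pollutants, so its highest group was ST vehicle, and no comparison was called. Fos, above background on 10 arrays only, was left out of the test.

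Of 16 core clock genes 13 were measured. With pollutants against ST vehicle, 4 rose and 2 fell, beside 0.543% and 0.441% of all genes. With HFHS against ST vehicle 1 rose and 1 fell, beside 0.236% and 0.451%. In HFHS against pollutants 0 were called (limma), beside 3.87% of all genes, with a median of -0.17. At an unadjusted p under 0.05 (limma) there were 4, beside 3568 of 19513 genes. Arntl, the activator at the core of the clock, fell by 2.13 (SE 0.28, adjusted p = 0.00636) with pollutants and by 1.60 (SE 0.28, adjusted p = 0.0242) with HFHS. Per2 rose by 1.85 (SE 0.29, adjusted p = 0.0157) and 1.63 (SE 0.29, adjusted p = 0.0258). Ciart rose by 2.88 (SE 0.49, adjusted p = 0.022, limma) and Tef by 0.99 (SE 0.21, adjusted p = 0.0482) with pollutants. With pollutants the call was lost in 2 of 25 alternatives for Arntl, 5 of 25 for Per2, 10 of 24 for Ciart and 19 of 25 for Tef. With HFHS it was lost in 11 of 25 for Arntl and 12 of 25 for Per2. The means of Tsc22d3 were also above ST vehicle in both groups, without passing the threshold, and the part of the clock in that was not tested. Without slide 1 the calls of Arntl, Per2, Ciart and Tef were lost. Without HFHS replicates 3, 4 and 5 the calls of Arntl and Per2 with HFHS and of Tef with pollutants were lost. With slide as a block the calls of Arntl and Per2 with HFHS and of Per2, Ciart and Tef with pollutants were lost.

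Marker lists of other cells were compared over the groups because several members are also expressed in immune and fat cells. Of the 8 hepatocyte markers, 8 had a lower mean with HFHS than in ST vehicle and 7 a lower mean with HFHS than with pollutants. Of all genes, 54.5% and 51.1% did. Median list means were 7.78, 8.003 and 7.97 (HFHS, ST vehicle, pollutants). In these comparisons 0 were called (limma), beside 0.687% and 3.87% of all genes. At an unadjusted p under 0.05 (limma) there were 2 and 3, beside 2356 and 3568 of 19513 genes. Kupffer cell and macrophage markers (8 of 8 measured) had list means of 2.71 to 3.03 with HFHS, 2.58 to 3.04 in ST vehicle and 2.39 to 3.26 with pollutants. T cell markers (7 of 8 measured) ran from -1.34 to -0.90, -1.05 to -0.52 and -1.05 to -0.69 in the same order. Cholangiocyte markers (5 of 6) had lower list means with HFHS, at -2.85 to -2.55, than in ST vehicle, at -2.15 to -2.10, and pollutants ran from -2.66 to -1.83. In HFHS against ST vehicle 0 of these 5 genes were called (limma), beside 0.687% of all genes. At an unadjusted p under 0.05 (limma) there was 1, beside 2356 of 19513 genes. For 2 of the 5 every HFHS array lay below every ST vehicle array, beside 5.33% of all genes. Erythroid markers (5 of 6) were higher with pollutants, at 3.16 to 3.69, than in ST vehicle, at 2.58 to 3.01. The HFHS list means overlapped both ranges, and their median, 3.23, was near that with pollutants, 3.25. All 5 genes had higher means than in ST vehicle with HFHS (median difference 0.34) and with pollutants (0.53). Of them 0 were called (limma), beside 0.687% and 0.984% of all genes. Those with an unadjusted p under 0.05 (limma) numbered 1 and 4, beside 2356 and 2371 of 19513 genes. Adipocyte markers (5 of 6) ran from -3.70 to -3.12, -3.78 to -2.04 and -4.07 to -1.14 (HFHS, ST vehicle, pollutants). The part of these shifts in the members' differences was not tested.

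Differences between HFHS and pollutants were recomputed without the 3 HFHS arrays that had high acinar markers. Zbtb16 differed by -1.64 with and -1.64 without them, Fkbp5 by -0.60 and -0.76, and Tsc22d3 by -0.42 and -0.58. Zbtb16 was no longer called without them.

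The genes most like 3 members over the 13 arrays were looked up among 14462 other genes with a symbol, by Pearson's r. The arrays share groups and slides, so r describes likeness only. For Fkbp5 they were Serinc1 (r = 0.90), Mrpl38 (0.89), Trip10 (0.88), Pdzd8 (0.86) and Eif4ebp3 (0.86). For Zbtb16 they were Atm (r = 0.88), Lpin1 (0.86), Ddx21 (0.85), Nucks1 (0.84) and Cyp39a1 (0.84). For Tsc22d3 they were Prkag2 (r = 0.94), Per1 (0.91), Fastk (0.90), Slc38a9 (0.90) and Cipc (0.89). The r that remained after subtracting each group's mean was 0.86 for Zbtb16 with Atm, 0.52 for Zbtb16 with Lpin1 and 0.82 for Tsc22d3 with Per1. These pairs were picked for their high r over the same arrays, and slide was not removed. The remaining r is therefore no separate evidence that they vary together. The Per1 values are those of the probe with which its second probe disagreed. No member appeared in these lists, since members were left out of the search.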

How the data were processed

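The authors deposited scanner files with linear spot intensity, made with Agilent Feature Extraction 11.5.1.1 per the file headers. A normalized table deposited by the authors, on a log2 scale judged from its values, covers 26082 probes and served as an alternative. Labelling used 0.1 ug of RNA.

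The processed signal was log2-transformed, with 183 to 283 outlier spots per array set missing. It was then averaged per probe and reduced by the array's 75th percentile. Over the genes tested, 128 values were still missing after averaging. Probes had to be well above background on all arrays of 1 or more groups (25028 passed), and the probe of highest mean stood for a gene (19513 genes). limma 3.58.1 in R 4.3.3 fitted 1 model with 3 groups. The 75th percentile was 782 to 1354 intensity units, 62.8% to 69.5% of probes were well above background, and at most 1 was saturated. The number of arrays limits precision. p-values set a group difference against the spread between labelled replicates. That spread was pooled over the 3 groups and moderated across genes, with slide not in the model. The scripts were checked on simulated data.

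The members, the gene lists and the rule for named genes were chosen with earlier results of these data known. That rule names the members, 19 chosen genes, up to 4 called genes of smallest p per list and comparison, and 5 genes most like Fkbp5, Zbtb16 and Tsc22d3. H6pdh in the list is an older name of H6pd. Probe positions are those of the files (mm9), and promoters are RefSeq's (GRCm38.p6). Alternatives were other background corrections, normalizations, filters, probe rules, blocks, and arrays left out.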

Additional observations from a re-analysis of the deposited data

Results flagged for a closer look

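In Zbtb16, the pollutant replicate 4 stood at 1.40, above the next pollutant array at -0.14. The gap was 0.743 of the group's range. In Klf9, HFHS replicate 4 stood at 1.86, below the next HFHS array at 2.28, with a gap of 0.747 of the range. In Per2, the pollutant replicate 1, on slide 1, stood at -1.81, below the next at -1.49, with a gap of 0.778. The critical gap for 5 arrays is 0.71 of the range. Over 64 groups of 5 arrays examined, chance flags about 1 in 20.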

How the results depend on the processing

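Counts of called genes are given in the order HFHS against pollutants, HFHS against ST vehicle, pollutants against ST vehicle, with 756, 134 and 192 as reported. They were 323, 68 and 48 with median scaling, 361, 55 and 70 with no filter on dim probes, and 287, 45 and 22 with normexp. With only the compared groups in the model, the last 2 were 25 and 40. With slide as a block they were 84 and 67, and with the replicate number as a block 53 and 44 (563 for HFHS against pollutants). Same-numbered arrays correlated at -0.168 to 0.560 over 11 pairs in their deviations from group means, so the number does not pair all samples. Arrays of the same slide correlated at -0.022 to 0.560 over 11 pairs, and the other 44 pairs at -0.405 to 0.267. Without slide 1 the counts were 1, 1 and 3, and without HFHS replicates 3, 4 and 5 they were 289, 4 and 92. Leaving out 1 array at a time gave 349 to 712, 23 to 140 and 39 to 175. Which of fewer arrays and other causes lowered the counts without slide 1 was not tested.

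Of the 29 other induced genes, 6, 0 and 1 were called as reported. The count for HFHS against pollutants was 3 with no filter, 3 without HFHS replicates 3, 4 and 5, 0 without slide 1, and 3 to 8 on leaving out 1 array. That for HFHS against ST vehicle was 1 with the authors' table and 1 with the filter on all arrays, and 0 to 1 on leaving out 1 array. That for pollutants against ST vehicle was 0 with the mean of a gene's probes, median scaling, no filter, either block or without slide 1, 3 with only the compared groups or without HFHS replicates 3, 4 and 5, and 0 to 3 on leaving out 1 array. The median difference of the 10 genes, -0.42, -0.12 and 0.37 in the same order, ran on leaving out 1 array from -0.59 (without pollutant replicate 1) to -0.35 (without pollutant replicate 5), from -0.24 (without ST vehicle replicate 1) to -0.02 (without ST vehicle replicate 2), and from 0.23 (without ST vehicle replicate 1) to 0.56 (without ST vehicle replicate 2). In at least 1 of 25 alternatives the sign of the difference changed for Nr3c1 in all 3 comparisons, for Dusp1 and Hsd11b1 in both against ST vehicle, for Errfi1 and Cebpd in HFHS against ST vehicle, and for Klf9 in pollutants against ST vehicle.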
